A study of Mus musculus with 9 samples.

Results

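The insulin-like growth factor binding proteins Igfbp1 to Igfbp7, with the growth factor Igf1 and its receptor Igf1r, were followed in endothelial cells (ECs) of the bone marrow (BM). The 9 genes were found by their gene names among the 46078 genes of the read count table, and 1 row carried each name. Of the 9, 8 had enough reads for edgeR's low-count filter and entered the test. Igfbp1 had 0 counts in all 9 libraries and could not be tested. The cells came from normal wild-type (wt) B6 mice and were sorted as CD45-Ter119-CD31+, that is, without the pan-leukocyte and erythroid surface markers and with the endothelial marker CD31, a protein that platelets and megakaryocytes also carry. They were split by Sca-1, the surface protein encoded by Ly6a, into a Sca-1+ and a Sca-1- fraction, which the study calls Sca-1high and Sca-1low and takes as ECs of arterioles and of sinusoids. The Sca-1+ fraction had 4 libraries and the Sca-1- fraction 5. Each is called here by the closing number of its label, 7, 13, 15 and 19 for Sca-1+ and 8, 10, 14, 16 and 22 for Sca-1-. The labels of 13, 14 and 22 also carry the mark CD452 and that of 10 the same number without the letters, those of 8, 15, 16 and 19 the mark wt, and that of 7 neither, so the marks fall unevenly over the fractions, and what they stand for is not given in the sources used here. Neither the age nor the sex of the mice, nor whether animals were pooled, is given in the sources used here, so the p-values measure the spread between these samples, which may in part be technical.

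Insulin-like growth factors are small secreted hormones that act through the receptor tyrosine kinase Igf1r and, from there, through insulin receptor substrates, PI3 kinase and Akt. Most of the growth factor outside cells is held by binding proteins, which carry it, keep it from the receptor or release it when proteases cut them. Igfbp1 to Igfbp6 bind the growth factors tightly, while Igfbp7 binds them weakly and is best known as a protein of the vascular matrix. Endothelium is a known source of several of these binding proteins, and marrow stromal cells and osteoblasts are known sources of Igf1, Igfbp4 and Igfbp5.

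The family contains 2 pairs of neighbours in the genome. In GENCODE M21 on GRCm38, Igfbp1 (chr11:7197782-7202546, + strand) and Igfbp3 (chr11:7206086-7213923, - strand) end 3539 bases apart, and Igfbp2 (chr1:72824503-72852474, + strand) and Igfbp5 (chr1:72857932-72874884, - strand) end 5457 bases apart. No other gene reached into either gap. The other members lay singly, Igfbp4 at chr11:99041244-99054392 (+ strand), Igfbp6 at chr15:102144362-102149511 (+ strand), Igfbp7 at chr5:77349240-77408041 (- strand), Igf1 at chr10:87858265-87937042 (+ strand) and Igf1r at chr7:67952827-68233668 (+ strand). All 9 are protein-coding, and counts fall on their exons. Of the 9 genes, Igfbp7 alone shares exon bases with another gene, Polr2b on the opposite strand.

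The 250 bases before the start site are shown for the 3 binding proteins that differed most firmly between the fractions, Igfbp3, Igfbp4 and Igfbp7, and for Igf1r, which differed in the other direction. They are RefSeq sequences on GRCm38.p6, read 5′ to 3′ on the strand of the gene, at chr11:7213924-7214173 (- strand), chr11:99040994-99041243 (+ strand), chr5:77408046-77408295 (- strand) and chr7:67952007-67952256 (+ strand). For Igf1r the RefSeq start site differs from the GENCODE start given above, and the stretch ends at 67952256, upstream of 67952827. Capitals mark matches on either strand to TATAAA (the TATA box), TATATA (a run like it), GGGCGG (the GC box), CCAAT and AGGAAG (a core that Ets factors can bind).
Igfbp3: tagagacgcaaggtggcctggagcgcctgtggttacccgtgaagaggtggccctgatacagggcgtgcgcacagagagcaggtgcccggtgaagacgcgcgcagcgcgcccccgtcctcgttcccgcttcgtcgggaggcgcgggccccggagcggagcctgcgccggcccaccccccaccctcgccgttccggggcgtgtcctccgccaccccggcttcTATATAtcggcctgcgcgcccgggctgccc
Igfbp4: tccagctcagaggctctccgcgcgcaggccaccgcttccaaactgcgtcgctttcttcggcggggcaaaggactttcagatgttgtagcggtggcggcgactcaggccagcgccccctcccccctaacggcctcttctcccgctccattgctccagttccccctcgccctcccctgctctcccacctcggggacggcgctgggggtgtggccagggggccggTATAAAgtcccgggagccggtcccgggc
Igfbp7: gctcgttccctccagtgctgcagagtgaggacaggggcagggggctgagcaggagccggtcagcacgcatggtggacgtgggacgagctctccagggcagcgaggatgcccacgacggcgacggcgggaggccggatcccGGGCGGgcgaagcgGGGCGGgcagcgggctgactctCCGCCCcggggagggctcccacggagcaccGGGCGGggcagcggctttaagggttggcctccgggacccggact
Igf1r: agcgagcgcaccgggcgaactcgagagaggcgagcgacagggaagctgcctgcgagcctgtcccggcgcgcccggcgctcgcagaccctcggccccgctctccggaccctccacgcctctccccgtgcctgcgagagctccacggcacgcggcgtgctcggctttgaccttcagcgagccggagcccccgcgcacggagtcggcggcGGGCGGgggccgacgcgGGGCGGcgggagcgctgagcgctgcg
The Igfbp4 stretch held 1 TATAAA match and the Igfbp3 stretch 1 TATATA match, each close to the start site. The Igfbp7 stretch held 4 GGGCGG matches and that of Igf1r held 2, and neither held a TATA-type match. All 4 stretches were rich in CpG dinucleotides, with 32 in Igfbp3, 22 in Igfbp4, 26 in Igfbp7 and 42 in Igf1r, against a median of 6 over 32851 promoters of the same length. In that background 12.4% of promoters held TATAAA, 5.25% TATATA, 32.7% GGGCGG, 33.8% CCAAT and 29.5% AGGAAG. The Igfbp5 stretch, with 10 CpG dinucleotides, held none of these motifs. A match is a run of letters and not a shown binding site.

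The libraries held between 21581653 and 25959818 counts, at which 3 counts, taken as the smallest level a library could show, were 0.0996 to 0.209 CPM (counts relative to the library total, corrected by edgeR's TMM factors). These limits cover counting error only, because the libraries carry no molecular identifiers. Ly6a, which encodes Sca-1, was between 874 and 1306 CPM in the Sca-1+ libraries and between 0.240 and 1.49 CPM in the Sca-1- libraries. Pecam1, which encodes CD31, had an adjusted p of 0.247 by edgeR (log2 fold change 0.74, SE 0.49), and passed with library size only (1.38, adjusted p = 0.00425). Of 28 general endothelial genes, 26 were higher in Sca-1+ and 2 did not pass, and their summed level was 18000 to 21400 CPM in Sca-1+ and 1470 to 4010 CPM in Sca-1-. The endothelial adhesion gene Cdh5 was at 2.44 to 13.2 CPM in Sca-1-, against 235 to 297 CPM in Sca-1+. All 16 megakaryocyte genes were lower in Sca-1+, with sums of 47.7 to 98.8 CPM there and 27900 to 121000 CPM in Sca-1-, and the platelet integrin Itga2b alone reached 5539 to 23280 CPM in Sca-1-. Of 17 stromal and osteoblast genes, 6 were higher and 3 lower in Sca-1+, with sums of 904 to 3950 CPM in Sca-1+ and 3380 to 43300 CPM in Sca-1-, the collagen gene Col1a1 giving most of the Sca-1- sums. Of 12 sinusoidal genes 10 were higher and 1, Lyve1, lower in Sca-1+, and of 14 arterial genes 12 were higher. The Sca-1- fraction is therefore named below by its sort and not as sinusoidal endothelium. In such bulk samples, fewer cells of a type and less RNA per cell cannot be told apart. The running numbers that open the labels also run in separate series in the 2 fractions, so any step that followed them cannot be told apart from the fraction.

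Between the fractions, 5 of the 8 tested members were higher in Sca-1+ (Igfbp2, Igfbp3, Igfbp4, Igfbp7 and Igf1), 1 was lower (Igf1r) and 2 did not pass (Igfbp5 and Igfbp6), by edgeR's quasi-likelihood F-test with a Benjamini-Hochberg adjusted p below 0.05. Over all 15937 genes tested, 23.3% were higher and 21.4% lower, so each direction was common. The median log2 fold change was 3.08 over the 8 members and 0.07 over all genes tested. The libraries of the fractions did not overlap for 4 members on the higher side and 1 on the lower side, where 24.8% and 18.8% of all genes tested did not overlap. For those 5 members the lack of overlap among libraries of the same label mark follows from this and is no separate check. Only 1 Sca-1+ library, number 13, carries CD452. Together, Igfbp1 to Igfbp7 took 0.436% to 0.607% of all counts in the Sca-1+ libraries and 0.00317% to 0.0318% in the Sca-1- libraries.

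**Figure D1:**
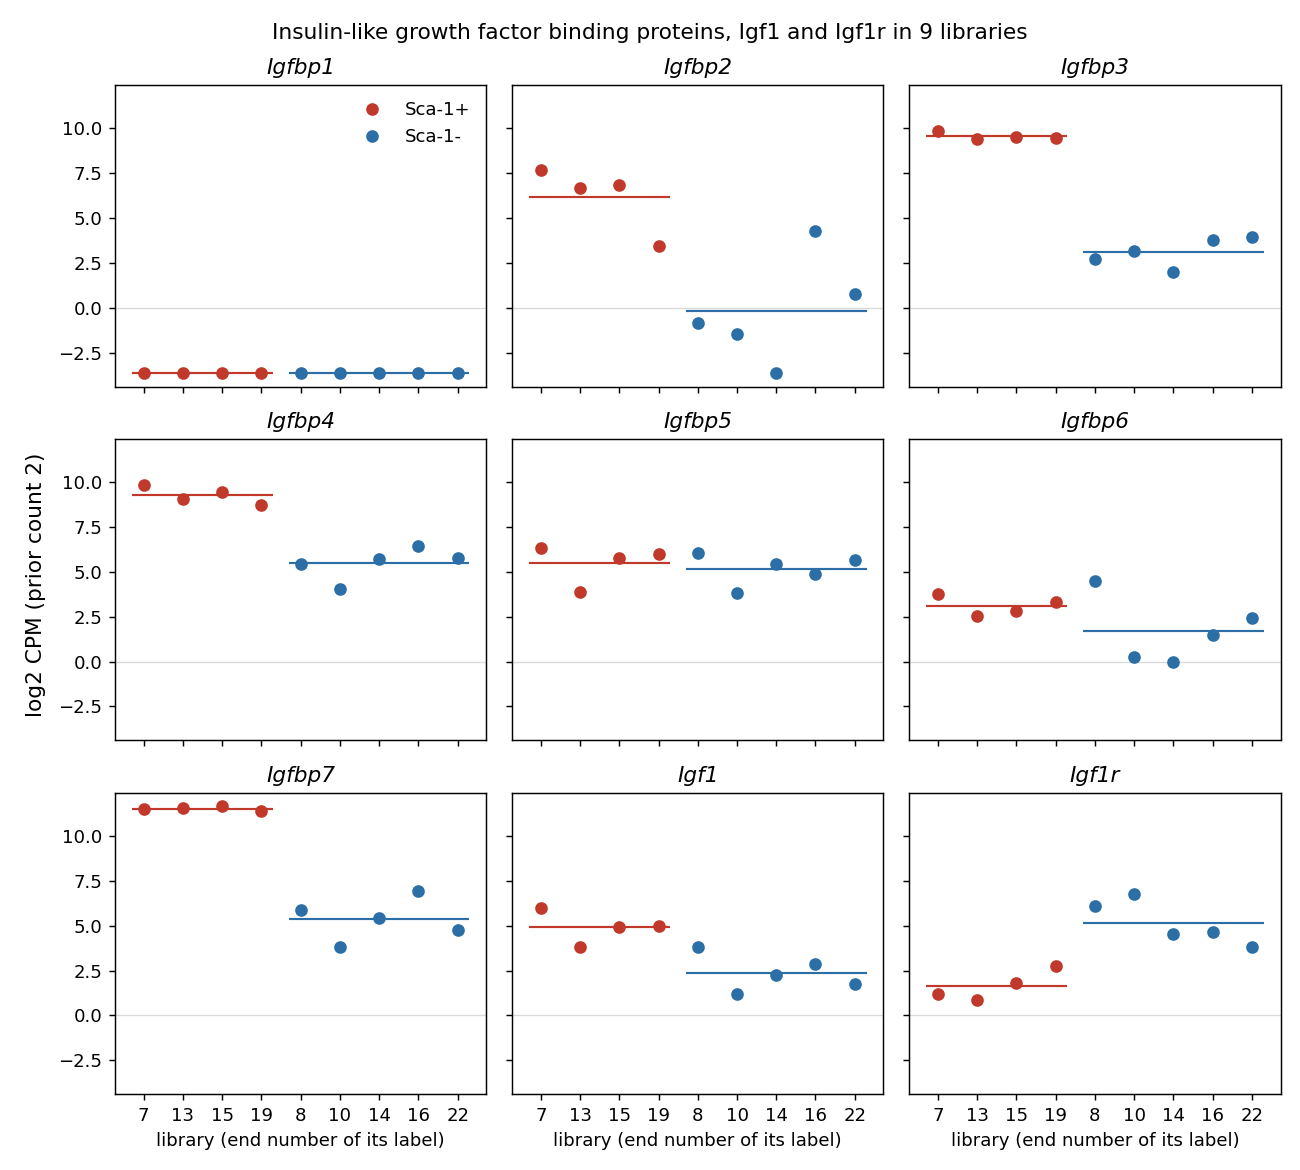
Level of each gene in each library, as log2 CPM with a prior count of 2, in the 4 Sca-1+ libraries (red) and the 5 Sca-1- libraries (blue), with lines at the means of the fractions. Igfbp3, Igfbp4, Igfbp7 and Igf1 lie higher in every Sca-1+ library, Igf1r lies lower, the other tested genes overlap, and the lowest points of Igfbp1 and of Igfbp2 in Sca-1- 14 stand for 0 counts.

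Igfbp7, a secreted protein of the vascular matrix, was the highest member per kilobase of exon in each library. Its level was 2852 CPM in Sca-1+ 7, 3026 in Sca-1+ 13, 3212 in Sca-1+ 15 and 2668 in Sca-1+ 19. In Sca-1- it was 59.7 CPM in library 8, 13.8 in library 10, 42.4 in library 14, 124 in library 16 and 27.1 in library 22. The Sca-1+ libraries lay close to each other, while the Sca-1- libraries spread widely and none came near them. The mean of 2939 ± 233 CPM (SD, n = 4) in Sca-1+ was 55.1-fold that of 53.3 ± 42.9 CPM (SD, n = 5) in Sca-1- (edgeR log2 fold change 5.78, SE 0.62, adjusted p = 8.27e-05). The use of strand in counting is not given in the sources used here, so reads of Polr2b cannot be told apart from those of Igfbp7 where their exons overlap. Polr2b, a subunit of RNA polymerase II, had 4908 to 5796 counts in Sca-1+ and 699 to 3205 in Sca-1-, where Igfbp7 had 68908 to 93013 and 197 to 3725, so the Igfbp7 values in Sca-1- are the less certain ones.

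Igfbp3, the main carrier of the growth factors in blood, was at 920 CPM in Sca-1+ 7, 684 in Sca-1+ 13, 739 in Sca-1+ 15 and 705 in Sca-1+ 19. In Sca-1- it was at 6.37 CPM in library 8, 8.94 in library 10, 3.90 in library 14, 13.6 in library 16 and 15.03 in library 22. Every Sca-1+ library stood far above every Sca-1- library. Sca-1+ averaged 762 ± 108 CPM (SD, n = 4) and Sca-1- averaged 9.57 ± 4.71 CPM (SD, n = 5), which is 79.5-fold (log2 fold change 6.31, SE 0.44, adjusted p = 1.52e-05). Its neighbour Igfbp1, a binding protein best known from liver, had 0 counts in every library, including those with 18202 to 26983 counts of Igfbp3, which allows a level of up to 0.209 CPM at most.

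Igfbp4, which holds the growth factors until the protease encoded by Pappa cuts it, was at 924 CPM in Sca-1+ 7, 535 in Sca-1+ 13, 705 in Sca-1+ 15 and 430 in Sca-1+ 19. The Sca-1- libraries held 42.7 CPM in library 8, 16.4 in library 10, 52.4 in library 14, 85.4 in library 16 and 54.9 in library 22. The fractions did not overlap, although the Sca-1+ libraries differed among themselves more than they did for Igfbp3 or Igfbp7. Mean levels were 648 ± 216 CPM in Sca-1+ (SD, n = 4) and 50.3 ± 24.8 CPM in Sca-1- (SD, n = 5), or 12.9-fold (log2 fold change 3.69, SE 0.45, adjusted p = 0.000151).

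Igfbp2, which like Igfbp5 can also bind matrix and cell surfaces, varied widely within the fractions. It was at 205 CPM in Sca-1+ 7, 102 in Sca-1+ 13, 114 in Sca-1+ 15 and 10.9 in Sca-1+ 19. In Sca-1- it was at 0.481 CPM in library 8, 0.279 in library 10, 0 in library 14, 19.1 in library 16 and 1.59 in library 22. Sca-1+ 19 thus lay below Sca-1- 16, and the fractions overlapped. The mean was 108 ± 79.4 CPM in Sca-1+ (SD, n = 4) and 4.28 ± 8.28 CPM in Sca-1- (SD, n = 5), and the log2 fold change of 4.63 (SE 1.46) had an adjusted p of 0.0256. Call and size rested on single libraries. The adjusted p was 0.0614 without Sca-1+ 7, 0.0511 without Sca-1- 8 and 0.055 without Sca-1- 22, while without Sca-1- 16 the log2 fold change was 7.45 (adjusted p = 0.000924).

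Igfbp5, the neighbour of Igfbp2, was at 80.2 CPM in Sca-1+ 7, 14.9 in Sca-1+ 13, 55.3 in Sca-1+ 15 and 64.7 in Sca-1+ 19. The Sca-1- libraries held 65.1 CPM in library 8, 14.1 in library 10, 42.8 in library 14, 29.5 in library 16 and 49.5 in library 22. The ranges of the fractions overlapped almost wholly. With 53.8 ± 27.9 CPM on average in Sca-1+ (SD, n = 4) and 40.2 ± 19.4 CPM in Sca-1- (SD, n = 5), the log2 fold change was 0.42 with a 95% interval of -0.57 to 1.41 (adjusted p = 0.524). Of the 2 neighbours, Igfbp2 therefore passed the test and Igfbp5 did not, and the difference between their fold changes was not tested.

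Igfbp6, which prefers Igf2 to Igf1, was low in both fractions. It was at 13.5 CPM in Sca-1+ 7, 5.82 in Sca-1+ 13, 6.87 in Sca-1+ 15 and 10.1 in Sca-1+ 19, and in Sca-1- at 22.2 CPM in library 8, 1.12 in library 10, 0.891 in library 14, 2.76 in library 16 and 5.33 in library 22. One Sca-1- library, number 8, lay above all others, and the other 4 lay below all Sca-1+ libraries. Means of 9.07 ± 3.48 CPM in Sca-1+ (SD, n = 4) and 6.45 ± 8.96 CPM in Sca-1- (SD, n = 5) gave a log2 fold change of 0.49 with a 95% interval of -1.18 to 2.16 (adjusted p = 0.665). Without Sca-1- 8 the log2 fold change was 1.77 (SE 0.59, adjusted p = 0.0381). Sca-1- 8 also had the highest sum of stromal and osteoblast genes, 43300 CPM, of which Col1a1 gave 27600 CPM, and their part in this result was not tested.

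The growth factor gene Igf1 was at 63.6 CPM in Sca-1+ 7, 14.1 in Sca-1+ 13, 29.9 in Sca-1+ 15 and 31.6 in Sca-1+ 19. In Sca-1- it was at 13.9 CPM in library 8, 2.16 in library 10, 4.71 in library 14, 7.34 in library 16 and 3.30 in library 22. The fractions did not overlap, but the lowest Sca-1+ and the highest Sca-1- library were almost level. The average was 34.8 ± 20.8 CPM in Sca-1+ (SD, n = 4) and 6.29 ± 4.69 CPM in Sca-1- (SD, n = 5), or 5.53-fold (log2 fold change 2.47, SE 0.58, adjusted p = 0.00597). Within Sca-1+, library 7 was highest and library 13 lowest for both Igf1 and Igfbp5, and the same 2 libraries had the highest and the lowest sum of stromal and osteoblast genes, 3950 and 904 CPM. Within Sca-1-, library 8 was highest and library 10 lowest for both genes, with stromal and osteoblast sums of 43300 and 9610 CPM, the lowest sum being 3380 CPM in library 14. Not every gene of the stromal and osteoblast list followed its sum in Sca-1+. Col1a1, Lepr and Bglap were at 389, 151 and 3.91 CPM in Sca-1+ 19, above 181, 141 and 2.93 CPM in Sca-1+ 7. Sca-1+ 13 was lowest for each of them. The part of stromal RNA in the levels of Igf1 and Igfbp5 was not tested.

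Igf1r, the receptor, ran in the opposite direction. It was at 2.21 CPM in Sca-1+ 7, 1.74 in Sca-1+ 13, 3.38 in Sca-1+ 15 and 6.62 in Sca-1+ 19, and in Sca-1- at 67.8 CPM in library 8, 108 in library 10, 22.9 in library 14, 25.2 in library 16 and 14.2 in library 22. Every Sca-1- library lay above every Sca-1+ library, with a wide spread in Sca-1-. On average it was 3.49 ± 2.20 CPM in Sca-1+ (SD, n = 4) and 47.6 ± 39.7 CPM in Sca-1- (SD, n = 5), which is 13.6-fold higher in Sca-1- (log2 fold change -3.77, SE 0.71, adjusted p = 0.00182). The summed megakaryocyte genes were 95800 CPM in Sca-1- 8, 121000 in library 10, 57300 in library 14, 27900 in library 16 and 39000 in library 22, so the 2 libraries highest for them were also the 2 highest for Igf1r. Their part in the level of Igf1r was not tested.

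Levels of different genes were compared per kilobase of exon, as RPKM (CPM divided by exon length). In Sca-1+ the order of the mean RPKM was Igfbp7 (2431), Igfbp3 (243), Igfbp4 (147), Igfbp2 (58.4), Igfbp5 (8.95), Igfbp6 (8.16), Igf1 (3.51) and Igf1r (0.208). Igfbp7 and Igfbp3, Igfbp3 and Igfbp4, and Igf1 and Igf1r did not overlap in their ranges over the 4 libraries, whereas the other neighbours in this order did. In Sca-1- the order was Igfbp7 (44.1), Igfbp4 (11.4), Igfbp5 (6.69), Igfbp6 (5.80), Igfbp3 (3.06), Igf1r (2.84), Igfbp2 (2.32) and Igf1 (0.635), and every pair of neighbours overlapped. Of these means 2 rested on 1 library each, since Igfbp2 was at 10.3 RPKM in Sca-1- 16 and at most 0.860 in the other 4 (mean 0.318), and Igfbp6 at 19.9 RPKM in Sca-1- 8 and at most 4.80 in the other 4 (mean 2.27). The receptor was thus last of the 8 in Sca-1+ and above its ligand Igf1 in Sca-1-.

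The make-up of the family within a library does not depend on how libraries are scaled to each other. Of the summed Igfbp counts per kilobase, Igfbp7 gave 78.7% to 86.4% in the Sca-1+ libraries (median 85.5%) and 41.9% to 71.2% in the Sca-1- libraries (median 53.6%), and it was the largest part in each of the 9 libraries. Igfbp4 gave 3.81% to 6.98% in Sca-1+ and 10.5% to 23.2% in Sca-1-. Igfbp5 gave 0.0851% to 0.445% and 3.41% to 15.4%, and Igfbp6 0.180% to 0.406% and 1.43% to 21.7%. For Igfbp7, Igfbp4, Igfbp5 and Igfbp6 the 2 fractions did not overlap, with Igfbp7 taking more in Sca-1+ and the other 3 taking more in Sca-1-. Shares are parts of a whole, so a larger share of Igfbp7 lowers the others whatever their levels. Igfbp4 took a smaller share in Sca-1+ although its level there was 12.9-fold higher with TMM scaling. Igfbp3 gave 7.52% to 9.80% in Sca-1+ and 2.21% to 13.3% in Sca-1-, and its ranges overlapped, as did those of Igfbp2.

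**Figure D2:**
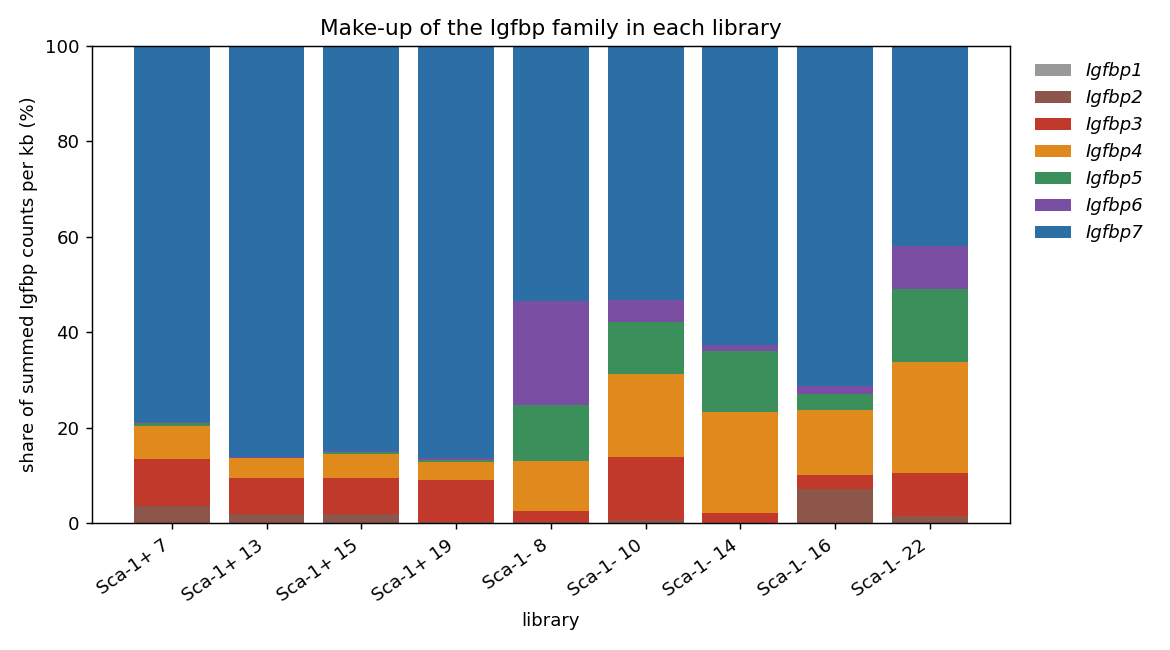
Share of each binding protein in the summed Igfbp counts per kilobase of exon (vertical axis, %) in each of the 9 libraries (horizontal axis), 1 bar a library. Igfbp7 fills at least 78.7% of each Sca-1+ bar, and Igfbp4, Igfbp5 and Igfbp6 fill more of each Sca-1- bar than of any Sca-1+ bar.

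Because endothelial genes in general were higher in Sca-1+, each member was also set against them. Among the 28 endothelial genes, Esam and Myct1 did not pass the test between the fractions and made up 29.3% to 88.5% of the endothelial sum in Sca-1-, against 6.78% to 8.50% in Sca-1+. The other 26 genes had log2 fold changes of 2.71 to 5.92 with a median of 4.80. Igfbp3 exceeded all 26 of them and Igfbp7 all but 1, while 19 of the 26 exceeded Igfbp4 and all 26 exceeded Igf1. With libraries scaled to the summed counts of all 28 genes, as planned, Igfbp3 (log2 fold change 2.95, adjusted p = 0.00026) and Igfbp7 (2.35, adjusted p = 0.00551) stayed higher in Sca-1+, 2 of the 8 members where 1.94% of all genes tested were called higher. Igfbp5, Igfbp6 and Igf1r were called lower, 3 of 8 where 80.8% of all genes were.

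Scaling to the 26 genes or to Cdh5 alone was chosen after seeing the data. Scaled to the 26 genes, Igfbp3 was higher in Sca-1+ by 1.79 on the log2 scale (SE 0.34, adjusted p = 0.000371) and Igfbp7 by 1.38 (SE 0.44, adjusted p = 0.0108). Igfbp4 was then lower by a log2 fold change of -0.77 (SE 0.31, adjusted p = 0.0356), and Igf1, Igfbp5 and Igfbp6 were lower too, with -2.08, -4.11 and -4.01. Igfbp2 had 0.42 and did not pass (adjusted p = 0.753). Scaled to Cdh5, none of the 8 members was called higher in Sca-1+, with Igfbp3 at 0.82 (adjusted p = 0.143) and Igfbp7 at 0.69 (adjusted p = 0.157). The direction of Igf1r was the same under each of these scalings. Over all genes tested, 1.22% were called higher and 89.6% lower with the 26 genes, and 0.747% and 92.9% with Cdh5, so a lower call was the usual one. These scalings moved the median of all genes tested as well, by -3.27 with 28 genes, by -4.58 with 26 genes and by -5.57 with Cdh5.

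**Figure D3:**
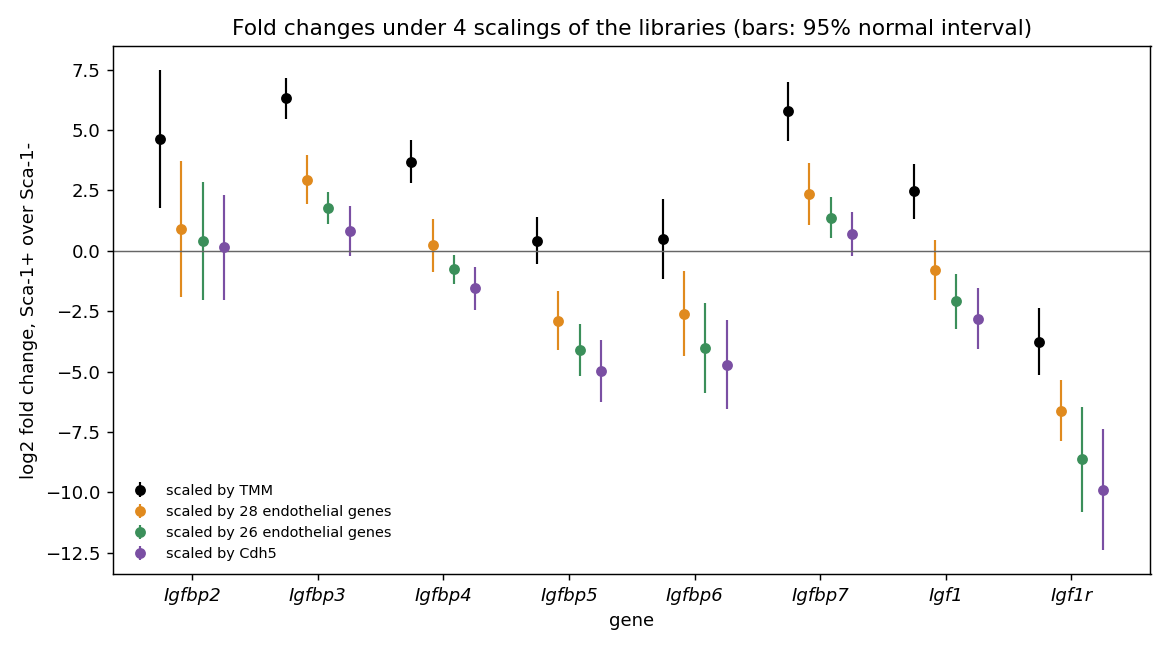
Log2 fold change of Sca-1+ over Sca-1- (vertical axis) of each tested gene (horizontal axis) with libraries scaled by TMM, by 28 or 26 endothelial genes or by Cdh5, with 95% normal intervals. Igfbp2, Igfbp3 and Igfbp7 lie above 0 in each scaling, but Igfbp2 is called higher only with TMM, and Igfbp3 and Igfbp7 are not called higher with Cdh5. Igf1r lies below 0 in each, as most genes do outside TMM, and Igfbp4, Igfbp5, Igfbp6 and Igf1 change side.

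Within each library the ratio to Cdh5 was formed from counts per kilobase, with 0.5 added to each count. The log2 ratio of Igfbp7 to Cdh5 was 5.08 to 5.49 in Sca-1+ and 3.68 to 5.03 in Sca-1-, and that of Igfbp3 was 1.74 to 2.30 and -0.04 to 2.28. That of Igfbp4 was 0.57 to 1.81 in Sca-1+ and 2.46 to 3.20 in Sca-1-, with no overlap. For Igfbp5 it was -4.50 to -2.16 and 0.65 to 2.62, and for Igf1 -5.30 to -3.22 and -2.38 to -0.32. Relative to this endothelial gene, Igfbp4, Igfbp5, Igfbp6, Igf1 and Igf1r were thus higher in each Sca-1- library than in any Sca-1+ library, but so were 85% of all genes tested, and this is no trait of the members. Igfbp7 was higher in each Sca-1+ library, as were 0.307% of all genes tested, although its ranges nearly touched. The Cdh5 count itself fell to 35 in Sca-1- 10, so the ratios of that library are the least precise.

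**Figure D4:**
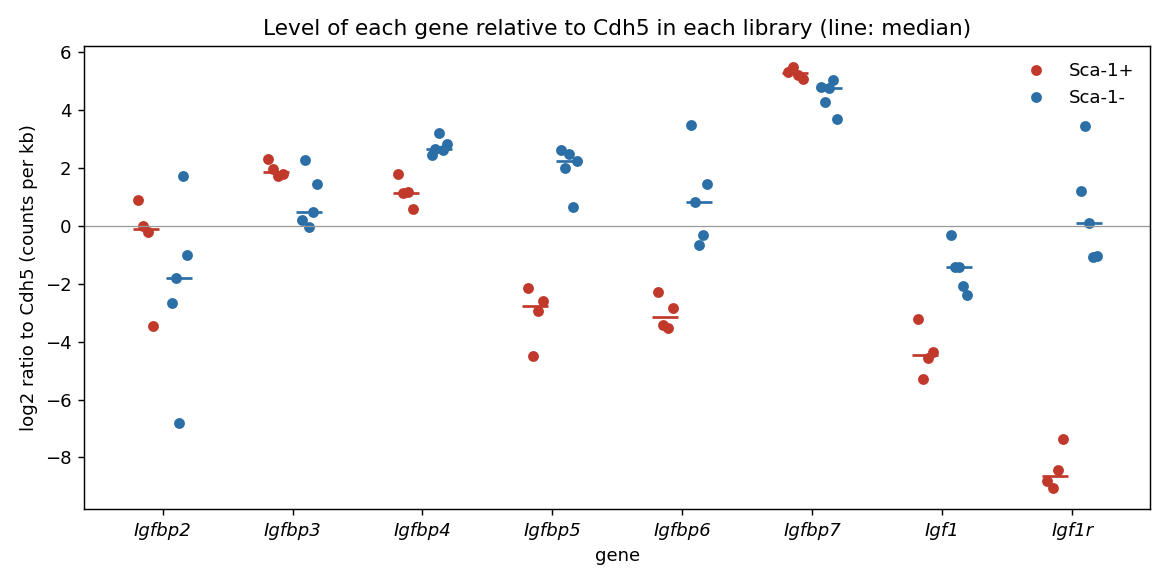
Log2 ratio of counts per kilobase of each tested gene to those of Cdh5 (vertical axis) in each Sca-1+ (red) and Sca-1- (blue) library, with lines at the medians. Igfbp7 lies slightly higher in Sca-1+ (5.08 to 5.49 against 3.68 to 5.03), and Igfbp4, Igfbp5, Igfbp6, Igf1 and Igf1r lie higher in Sca-1-.

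Of the other ligands and receptors, Igf2, the second insulin-like growth factor, was at 12.7 ± 8.29 CPM (SD, n = 4) in Sca-1+ and 0.612 ± 0.542 CPM (SD, n = 5) in Sca-1- (log2 fold change 4.33, SE 0.76, adjusted p = 0.0012, but 0.97 and adjusted p = 0.321 with libraries scaled to the 28 endothelial genes), and its exons overlap those of Gm49394 and Igf2os, so its value is uncertain. Igf2r, which removes Igf2 from the cell surface, was at 16.4 ± 1.26 CPM in Sca-1+ (SD, n = 4) and 2.36 ± 1.30 CPM in Sca-1- (SD, n = 5), and its fold change on the log2 scale, 2.80 (SE 0.64, adjusted p = 0.00538), was -0.43 with libraries scaled to the 28 endothelial genes. The insulin receptor gene Insr was at 24.7 ± 7.68 CPM in Sca-1+ (SD, n = 4) and 13.5 ± 6.30 CPM in Sca-1- (SD, n = 5) and did not pass (log2 fold change 0.87, adjusted p = 0.0878). It passed with library size only (1.41, adjusted p = 0.00623) and with limma voom (1.03, adjusted p = 0.0381), and turned to -2.21 (adjusted p = 0.000331) with libraries scaled to the 28 endothelial genes. Within a library, the log2 ratio of Igf1r to Insr per kilobase was -4.25 to -1.61 in Sca-1+ and 0.87 to 2.16 in Sca-1-. Insr thus exceeded Igf1r in each Sca-1+ library, and Igf1r exceeded Insr in each Sca-1- library. The insulin genes Ins1 and Ins2 had 0 counts.

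Among the genes that act on the binding proteins, Stc1, which encodes a secreted inhibitor of the Pappa protease, was at 203 ± 64.1 CPM (SD, n = 4) in Sca-1+ and 3.65 ± 2.95 CPM (SD, n = 5) in Sca-1-. Its log2 fold change of 5.78 (SE 0.64, adjusted p = 9.87e-05) was of the same size as that of Igfbp7, and its exons overlap those of Gm41192. Its paralog Stc2 was at 0.522 ± 0.131 CPM in Sca-1+ (SD, n = 4) and 1.82 ± 1.58 CPM in Sca-1- (SD, n = 5) and did not pass (log2 fold change -1.79, adjusted p = 0.206), but passed without Sca-1- 14 (-2.19, adjusted p = 0.0266) and with libraries scaled to the 28 endothelial genes (-5.12, adjusted p = 0.00346). Pappa itself was uneven, at 0 to 7.67 CPM in Sca-1+ and 0 to 2.58 CPM in Sca-1-. Too few libraries had enough counts of it for the low-count filter, so it was not tested. Pappa2 and Igfals, the subunit that holds Igfbp3 in its blood complex, did not pass this filter either.

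Of 42 genes of insulin-like growth factor and insulin signalling besides the members, 35 were tested, of which 8 were higher in Sca-1+, 12 lower and 15 did not pass. Their median log2 fold change was 0.00, beside 0.07 over all genes tested. In that fit, 23.3% of the 15937 genes passed on the higher side and 21.4% on the lower side. With libraries scaled to the 28 endothelial genes, 1 of the 35 was higher and 30 lower, with a median of -3.12. That scaling gave 80.8% of the 15937 genes a lower call and 1.94% a higher call. It moved their median by -3.27, so a lower call was usual and is no trait of this list. On the lower side of the main fit stood the phosphatase genes Ptpn11 (-3.48, SE 0.36, adjusted p = 6.3e-05) and Ptpn1 (-2.99, SE 0.55, adjusted p = 0.00163). The docking protein gene Irs2 (-2.97, SE 0.78, adjusted p = 0.011) and the kinase gene Akt2 (-2.82) stood there too. Irs2 and Foxo1 share exon bases with other genes. Akt1 was at 234 ± 72.4 CPM in Sca-1+ (SD, n = 4) and 156 ± 24.0 CPM in Sca-1- (SD, n = 5) and did not pass (adjusted p = 0.0857). Foxo1, a transcription factor that Akt keeps out of the nucleus, was at 135 ± 25.2 CPM in Sca-1+ (SD, n = 4) and 30.9 ± 14.99 CPM in Sca-1- (SD, n = 5), a log2 difference of 2.12 (SE 0.35, adjusted p = 0.000858), while its relative Foxo3 was lower (-2.10, adjusted p = 0.0102). Scaled to the 28 endothelial genes, Foxo1 turned to -1.27.

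Of 13 other genes whose proteins carry an IGFBP-like domain, 11 were tested, with 7 higher in Sca-1+, 2 lower and 2 that did not pass. Over all genes tested 23.3% were higher and 21.4% lower. The median log2 fold change of the 11 was 2.32, beside 0.07 over all genes tested. The secreted protease gene Htra1 was at 98.3 ± 42.7 CPM (SD, n = 4) in Sca-1+ and 10.3 ± 5.52 CPM (SD, n = 5) in Sca-1- (log2 fold change 3.25, SE 0.45, adjusted p = 0.000297). Esm1, which encodes an endothelial proteoglycan, had a log2 fold change of 2.52, and so did Crim1, a membrane protein gene whose exons overlap those of Fez2. The matricellular genes Cyr61, Ctgf and Nov had 2.48, 2.32 and 1.34 (the exons of Ctgf overlap those of another gene), with Cyr61 at 1298 ± 329 CPM in Sca-1+ (SD, n = 4) against 233 ± 113 CPM in Sca-1- (SD, n = 5). Wisp1 (-2.27) and Kazald1 (-2.29) were lower in Sca-1+, with libraries that overlapped between the fractions. With libraries scaled to the 28 endothelial genes, 0 of the 11 were called higher and 3 lower by edgeR (median -1.05), where 1.94% and 80.8% of all genes tested were, so the lack of higher calls is no trait of the list, and Htra1, Esm1, Crim1, Cyr61, Ctgf and Nov had log2 fold changes of -0.06, -0.72, -0.74, -0.79, -1.05 and -1.93. The Igf2bp genes, which share the name but encode proteins that bind Igf2 messenger RNA, form a separate list of 3, of which 2 were tested, and 1 of these, Igf2bp2, was lower in Sca-1+ (-2.47, SE 0.50, adjusted p = 0.00262).

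**Figure D5:**
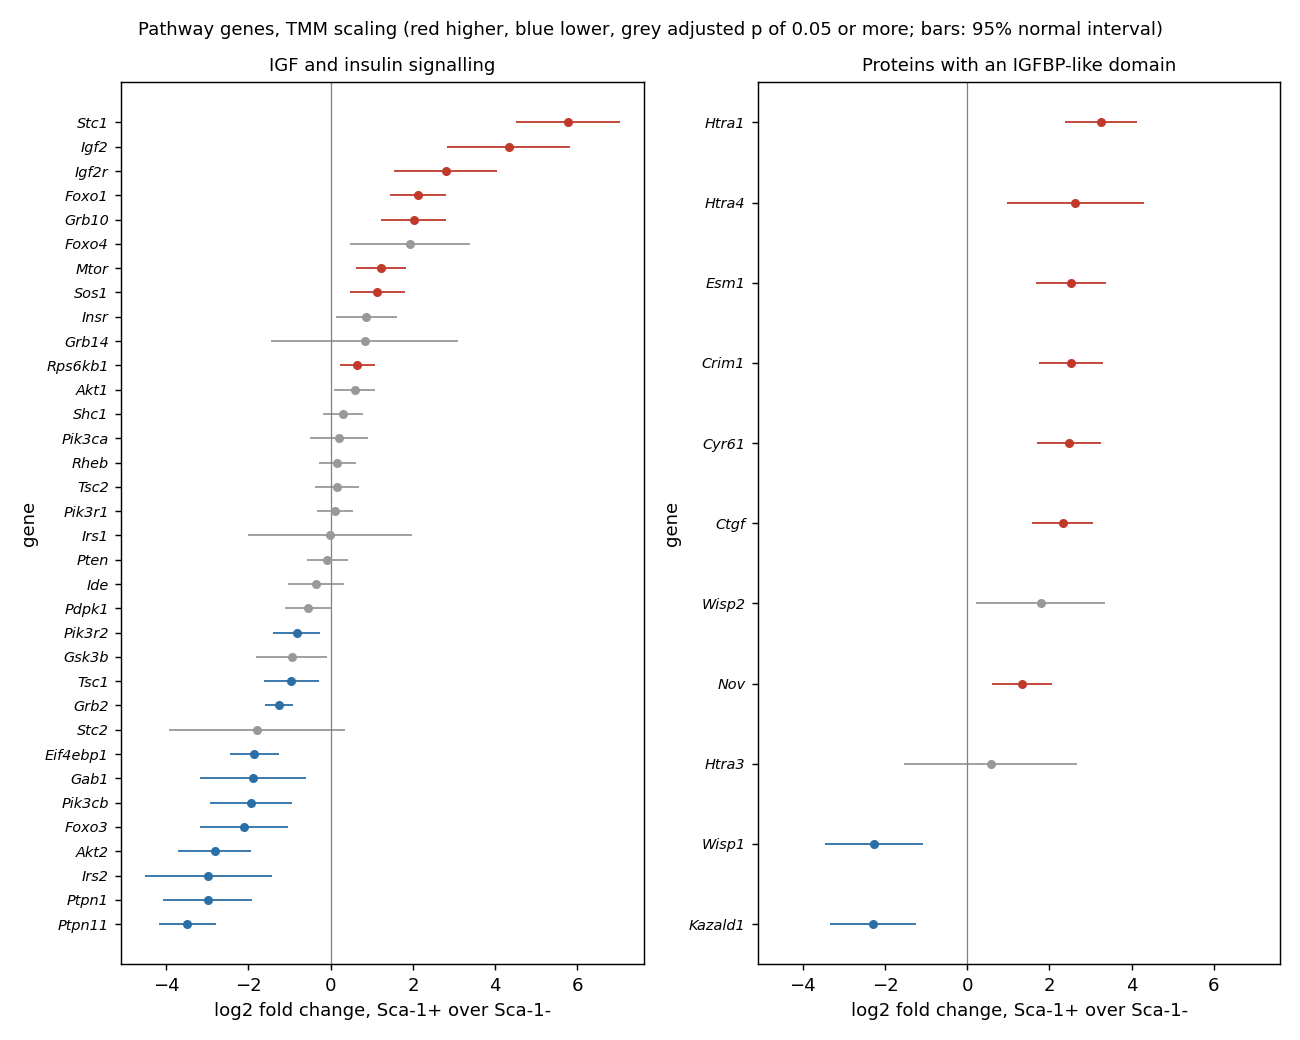
Log2 fold change of Sca-1+ over Sca-1- (horizontal axis) with 95% normal intervals for the tested genes of insulin-like growth factor and insulin signalling (left, 34 of the 35 genes) and with an IGFBP-like domain (right, 11 genes), under TMM scaling. The left list spreads to both sides of 0, while 7 genes of the right list are called higher and 2 lower. Over all genes tested 23.3% are called higher and 21.4% lower.

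The genes whose pattern was most like that of each member were found by Pearson's r of log2 CPM over the 9 libraries among 9867 genes. For Igfbp3 they were Slc7a7 (r = 0.998) and Dusp6 (r = 0.996), for Igfbp7 Flywch1 (r = 0.996) and Pofut2 (r = 0.995), and for Igfbp4 Slco2a1 and Trp53i11 (both r = 0.996). For Igfbp2 they were Pmvk (r = 0.981) and Pbxip1 (r = 0.977), for Igf1 Adamts10 (r = 0.966) and Plekhh3 (r = 0.964), and for Igf1r Rin3 (r = 0.990) and Ppp1r18 (r = 0.989). These values are descriptions, since the libraries fall into the 2 fractions and share their depth and scaling. Igfbp5, which did not separate the fractions, was most like Sec24d (r = 0.925), and after each fraction's mean was taken out this was 0.959. Igfbp6 was too low on average for the rule that chose members for this comparison.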

How the data were processed

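RNA was extracted from the sorted cells with the miRNeasy micro kit, and polyA libraries were made from 2 ng of total RNA with the SMART-Seq v4 kit. The authors deposited raw read counts per gene, not normalized, in 1 table for all 9 libraries. Their processing notes name STAR, featureCounts and mm10 without versions, and the use of strand and the handling of reads that match several genes are not given in the sources used here. Samples were grouped by the sorted fraction in the labels.

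The deposited table was read into edgeR 4.0.16 (R 4.3.3) as it stood. The filterByExpr defaults were used (at least 10 counts, total at least 15), libraries were scaled by TMM, and the quasi-likelihood F-test, two-sided and without robust weights, was adjusted by Benjamini-Hochberg over the 15937 genes that passed, with a threshold of 0.05. The common dispersion was 0.301, a coefficient of variation of 0.549. Log2 CPM used a prior count of 2. RPKM values are TMM-scaled CPM divided by the exon length of GENCODE M21, in which 45229 of the 46078 identifiers were found. All 9 members matched a RefSeq promoter. No pair of libraries of a fraction were copies of each other, with a chi-square per degree of freedom of at least 36.8 between them.

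The members, the gene lists and the tests were chosen with earlier results of these data known. Named were the members, Igf2, Igf2r, Insr, Igfals, Pappa, Pappa2, Stc1 and Stc2, up to 8 genes of the signalling and of the domain list with the largest called and non-overlapping change at an average log2 CPM of at least 3, the 2 genes most like each member at that level, and Ly6a, Pecam1 and Cdh5. Other genes were named after their values were seen. Of the genes that this rule takes, 2 are not reported here.

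The labels do not say whether libraries of the fractions were paired, and the main fit used no block. Sca-1+ 15 and Sca-1- 16 share the number 1729 in their labels. Deviations from the fraction means correlated by 0.147 (7 and 8), 0.148 (13 and 14) and 0.042 (15 and 16) between libraries with consecutive end numbers. All other pairs across the fractions had -0.191 to 0.065, so pairing of some libraries remains possible. Alternatives changed the scaling, the filter, the test (DESeq2 1.42.0, voom of limma 3.58.1), robust weights or the libraries included. In simulated data of this design, edgeR called 2 of 60 genes changed by 1 on the log2 scale (3.33%) among 15465 genes tested. It called 20 of 66 changed by 2 (30.3%), 62 of 70 changed by 4 (88.6%) and 0 unchanged genes. Far fewer genes were changed there than were called in the real data, so these shares do not carry over to it. Figures used matplotlib 3.10.9 (Python 3.11.15).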

Additional observations from a re-analysis of the deposited data

How the results depend on the processing

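The log2 fold changes of Igfbp3, Igfbp4, Igfbp7, Igf1 and Igf1r kept their direction and their call with DESeq2 size factors, upper-quartile factors, library size only, no filter, the DESeq2 Wald test, limma voom, robust weights and without any 1 library. Scaling to endothelial genes changed most results. Other choices changed some calls, as library size only made Insr (1.41) and Pecam1 (1.38) pass and limma voom made Insr (1.03) pass. With all 28 genes, Igfbp2 had 0.91 and Igfbp4 0.23 and neither passed, while Igfbp5 (-2.89), Igfbp6 (-2.61) and Igf1 (-0.80) turned direction. Igf1 did not pass there (adjusted p = 0.256 by edgeR). The 2 members called higher were Igfbp3 and Igfbp7, and the 3 called lower were Igfbp5, Igfbp6 and Igf1r (-6.62). With 26 genes, chosen after seeing the data, Igfbp2 had 0.42, Igfbp4 -0.77, Igfbp5 -4.11, Igfbp6 -4.01 and Igf1 -2.08, with 2 called higher and 5 lower. With Cdh5, also chosen after seeing the data, Igfbp2 had 0.14, Igfbp3 0.82, Igfbp7 0.69, Igfbp4 -1.55, Igfbp5 -4.97, Igfbp6 -4.72 and Igf1 -2.81, with 0 called higher and 5 lower. By construction these folds are relative to genes that are themselves higher in Sca-1+. Over all genes, 3719 were higher and 3415 lower in Sca-1+ with TMM, 4158 and 2431 with library size only, which moved the median by 0.36, 309 and 12874 with the 28 genes, 195 and 14276 with the 26, and 119 and 14803 with Cdh5.

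Scaling to the 28 genes also turned the direction of Igf2r (-0.43), Insr (-2.21), Foxo1 (-1.27), Htra1 (-0.06), Esm1 (-0.72), Crim1 (-0.74), Cyr61 (-0.79), Ctgf (-1.05), Nov (-1.93), Pmvk (-2.55), Pbxip1 (-2.30), Slc7a7 (-0.66), Dusp6 (-0.52), Flywch1 (-1.89), Pofut2 (-1.87), Adamts10 (-1.78), Plekhh3 (-1.10) and Pecam1 (-2.16). It ended the calls of Igf2 (0.97), Slco2a1 (1.33) and Trp53i11 (0.70) and made Stc2 (-5.12) and Sec24d (-3.30) pass. Sec24d, near 0 in the reported fit, turned with library size only (0.35) and without single libraries, to 0.11 without Sca-1+ 13 and 0.00 without Sca-1- 8 (its lowest value without 1 library was -0.19, without Sca-1- 10).

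Leaving out each library in turn gave log2 fold changes of 4.12 to 7.45 for Igfbp2, 6.02 to 6.53 for Igfbp3, 3.40 to 3.96 for Igfbp4, 0.14 to 0.74 for Igfbp5, 0.12 to 1.77 for Igfbp6, 5.47 to 6.35 for Igfbp7, 2.01 to 2.91 for Igf1 and -4.28 to -3.30 for Igf1r, with 4 to 5 members called higher. Igfbp2 lost its call without Sca-1+ 7 (4.12), Sca-1- 8 (4.28) or Sca-1- 22 (4.41), and Igfbp6 gained one without Sca-1- 8 (1.77) and Stc2 without Sca-1- 14 (-2.19). Pmvk lost its call without any 1 of 6 libraries (0.56 to 0.77). Igfbp2 exceeded Igfbp3 without Sca-1- 16 (7.45 against 6.47) and with limma voom (6.62 against 6.43).

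With consecutive end numbers as a replicate block in 6 libraries, Igfbp2 had 7.12 and no longer passed, as in the same 6 libraries without the block (4.41, added after seeing the data), and Igfbp5 had -0.08. Igf2r, Nov and Pmvk no longer passed in these 6 libraries with or without the block. The block called 2265 genes higher and 2075 lower, against 2768 and 2592 without it. The deviations of the 3 pairs correlated by 0.147, 0.148 and 0.042, and the numbers do not show that the libraries were paired. A term for the 2 libraries whose labels share another number changed no call of a member.

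The share of Igfbp7 in the family depended on the unit. Counts not divided by exon length gave it a median of 67.5% in Sca-1+ and 29.8% in Sca-1-, where Igfbp4 had 31.2% and Igfbp5 30.0%. The intervals of the log2 fold changes of Igfbp5 (-0.57 to 1.41) and Igfbp6 (-1.18 to 2.16) are wide. Both include a change of 1 on the log2 scale. The shares from the simulated data do not carry over to these libraries, so how often such a change was detectable here is not known.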

Other observations

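Some groups of genes outside the growth factor system are given as values only. Of 12 smooth muscle and pericyte genes, 8 were higher in Sca-1+, 1 lower and 3 did not pass (median log2 fold change 4.44). With libraries scaled to the 28 endothelial genes, 0 were higher and 3 lower by edgeR, and their median was 0.97. That scaling gave 80.8% of the 15937 genes a lower call and 1.94% a higher call. The levels of the 12 genes gave sums of 715 to 1780 CPM in Sca-1+ and 242 to 540 CPM in Sca-1-. The pericyte gene Rgs5 was at 205 CPM in Sca-1+ 7, 37.5 in Sca-1+ 13, 283 in Sca-1+ 15 and 539 in Sca-1+ 19, against 18.5 CPM in Sca-1- 16, 1 count in Sca-1- 22 and 0 counts in Sca-1- 8, 10 and 14. Lepr, a gene of marrow stromal cells, was at 141, 38.2, 80.9 and 151 CPM in the same 4 Sca-1+ libraries and 10.5 to 45.2 CPM in Sca-1-. Sca-1+ 13, the lowest for Rgs5 and Lepr, was also the lowest Sca-1+ library for Igf1, Igf1r, Igfbp3, Igfbp5 and Igfbp6, and it was second highest for Igfbp7 at 3026 CPM. The part of these cells in the levels of the binding proteins was not tested. Of 16 leukocyte genes, 0 were higher and 13 lower in Sca-1+, with 3 that did not pass by edgeR.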
